A study of Homo sapiens with 12 samples.

Results

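The NF-κB subunits and their inhibitors were followed by RNA sequencing in HLE-B3, a line of immortalized epithelial cells from the human lens. The members were chosen by name and by role, with earlier results of these data known, and are 10 of the 58735 genes in the deposited table. They are the 5 subunits NFKB1, NFKB2, RELA, RELB and REL, and 5 inhibitors, of which NFKBIA, NFKBIB and NFKBIE encode the classical IκB proteins, NFKBIZ encodes a nuclear IκB-like protein and TNFAIP3 encodes the enzyme A20. All 10 passed the filter on low counts in every comparison. The study asked how loss of autophagy alters the response of lens epithelial cells to oxidative stress. RNA came from 4 groups with 3 libraries each. The groups were wild-type (WT) cells and ATG7 knockout (KO) cells, both either untreated and collected at 0 h or exposed to 200 μM H2O2 for 12 h. ATG7 encodes an enzyme needed to form autophagosomes, and the labels name no other allele or agent. The KO cells were transfected with a CRISPR/Cas9 vector, selected with puromycin and expanded from picked clones. The study's methods describe no such steps for WT cells, and the labels do not say which clone or how many clones were sequenced. An effect of the clone or of these steps and an effect of ATG7 loss therefore cannot be told apart. Because the untreated cells were collected at 0 h, an effect of H2O2 and an effect of 12 h in culture cannot be told apart either. The study's methods call the 3 libraries of a group biological replicates, but neither these nor the labels say whether they came from separate cultures, and the p-values measure only the spread between these libraries.

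NF-κB is a family of dimeric transcription factors. RELA, RELB and REL carry the domain that activates transcription, whereas NFKB1 and NFKB2 encode precursors that are processed to the p50 and p52 partners. In resting cells the IκB proteins hold the dimers in the cytoplasm, and a stimulus that activates the IKK kinases leads to degradation of the IκB proteins and entry of the dimers into the nucleus. Several of the genes that NF-κB switches on encode its own subunits and inhibitors, so the mRNA of NFKBIA and TNFAIP3 is widely read as a feedback output of the pathway. The counts report mRNA only and carry no information on IκB protein, on phosphorylation or on where the dimers are.

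The libraries held 15602183 to 17659496 reads on genes. ATG7 mRNA was not reduced in the cells labelled KO. Untreated WT cells had 2.55 ± 0.31 and untreated KO cells 3.55 ± 0.20 FPKM (mean ± SD, n = 3, as for all such values here), and with H2O2 the levels were 1.96 ± 0.04 and 2.19 ± 0.14 FPKM. FPKM is the fragment count scaled to gene length and library size. The counts do not check the genotype labels, since a small deletion or insertion can leave the mRNA in place, and KO stands for the cells so labelled. The study checked its picked clones for loss of ATG7 by western blot, and the labels do not say which clone was sequenced. Of 8 lens epithelial markers, 2 to 3 exceeded 1 FPKM in each library, led by GJA1, whereas FOXE3, PROX1, MAF and CRYAA stayed under 0.1 FPKM in all 4 group means. The summed level of the 8 markers was between 26.2 and 56.0 FPKM, but most of it was GJA1. Its means were 26.1 and 43.5 FPKM in untreated and treated WT cells, and 23.9 and 50.5 FPKM in KO cells. SIX3, the next marker, had means of 3.06, 2.46, 1.98 and 2.45 FPKM in the same order. The sum therefore says little of the rest of the list. The 5 leukocyte markers summed to at most 2.50, 3 endothelial markers to at most 0.57 and 4 markers of other epithelia to at most 0.29 FPKM. In bulk RNA, fewer cells of a type and less RNA per cell cannot be told apart. The library of untreated KO replicate 1 stood apart. Its mean correlation with its own group was 0.974, against 0.991 for every library of the other 3 groups, and it ran high for genes under 2 kb and low for genes over 8 kb, with median log2 deviations of 0.32 and -0.39. Among the members, the longest, REL with 13170 bases, had 24 reads in this library against 156 and 194 in its group, while NFKBIA, NFKBIE, RELB and NFKBIB, all of 3035 bases or fewer, were higher in it than in either of the other untreated KO libraries. The comparisons that use untreated KO cells were therefore also run without this library.

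In untreated WT cells NFKBIA had the highest level per length of the 10 genes, at 52.2 ± 2.8 FPKM. RELA followed with 33.9 ± 0.2, NFKBIB with 19.2 ± 1.0, NFKB2 with 17.9 ± 0.4, NFKB1 with 15.7 ± 0.6, NFKBIE with 13.5 ± 0.4, RELB with 10.8 ± 0.4, TNFAIP3 with 9.62 ± 0.24 and NFKBIZ with 6.86 ± 0.46 FPKM. REL stood far under the others at 0.79 ± 0.10 FPKM. Only the neighbours NFKBIB and NFKB2 overlapped in this order. In WT cells with H2O2 the order changed at its head, because TNFAIP3 moved from the eighth to the second place, and RELA, NFKBIB and NFKBIE overlapped as neighbours. In untreated KO cells neighbours overlapped from RELA down to NFKB2, and NFKB1 overlapped RELB. In H2O2-treated KO cells the overlapping neighbours were RELA with NFKBIB, NFKBIE with NFKBIZ and NFKB2 with RELB. RELA was the most abundant subunit in all 4 groups, and REL was the least abundant gene in all 4.

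The first comparison asked how the members responded to H2O2 in WT cells. The mRNA of 9 of the 10 genes was higher after 12 h, and none was called lower. A gene was called when its p from the quasi-likelihood test of edgeR, adjusted by the Benjamini-Hochberg method over every gene tested, was under 0.01. By that rule 30.9% of all 15913 genes tested were higher and 30.1% were lower, and the median log2 fold change was 1.002 over the 10 members and -0.01 over all genes tested. With the added requirements of a log2 fold change beyond 1 and a mean above 1 FPKM in at least 1 group, which 12.5% of all genes met, 5 members remained, namely NFKBIA, NFKBIB, NFKBIE, NFKBIZ and TNFAIP3.

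Among the subunits, NFKB1 (chromosome 4, 102501329 to 102617302, plus strand, GRCh38) had 15.3, 15.5 and 16.4 FPKM in the untreated WT libraries and 32.2, 32.4 and 27.5 FPKM with H2O2. The groups were well apart, and the log2 fold change was 0.96 ± 0.05 (SE), with an adjusted p of 1.98e-19. RELB (chromosome 19, 45001430 to 45038198, plus strand), the activating partner of the NFKB2 product in the non-canonical pathway, went from 10.6, 10.6 and 11.3 FPKM to 21.4, 22.4 and 19.9 FPKM. Its change of 0.97 ± 0.06 was of like size, with an adjusted p of 2.11e-18. NFKB2 (chromosome 10, 102394110 to 102402529, plus strand) rose from 17.4, 18.3 and 17.9 FPKM to 25.5, 25.3 and 23.0 FPKM, a log2 fold change of 0.46 ± 0.05. RELA (chromosome 11, 65653596 to 65663094, minus strand), which encodes the p65 protein of the most common dimer, rose from 34.1, 33.7 and 33.9 FPKM to 41.8, 43.6 and 39.9 FPKM. At 0.29 ± 0.04 this was the smallest of the called changes, and with all 12 libraries in the fit it missed the threshold, with an adjusted p of 0.0114, the highest over its alternatives, which began at 2.80e-10. REL (chromosome 2, 60881521 to 60931610, plus strand), the subunit known best from lymphocytes, had 203, 165 and 185 reads untreated and 150, 143 and 117 reads with H2O2. Its log2 fold change of -0.32 ± 0.13 did not pass, with an adjusted p of 0.029. At an unadjusted p under 0.05, 10 members passed by edgeR and 9 by DESeq2. That threshold is looser than the adjusted rule, which 30.9% of all genes met as higher and 30.1% as lower. The share of all genes at the unadjusted threshold was not computed in any comparison. Counts at that threshold, here and below, therefore do not set the members apart from other genes.

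The inhibitors moved further than most subunits. TNFAIP3 (chromosome 6, 137867188 to 137883312, plus strand) encodes A20, a ubiquitin-editing enzyme that shuts off signalling to IKK. It had 9.74, 9.78 and 9.35 FPKM in untreated WT cells and 113, 112 and 99.0 FPKM with H2O2, which was 11.2-fold higher, with a log2 fold change of 3.48 ± 0.05 and an adjusted p of 1.49e-43. NFKBIA (chromosome 14, 35401511 to 35404749, minus strand), which encodes IκBα, rose from 49.0, 54.1 and 53.6 FPKM to 161, 149 and 155 FPKM. That was 2.96-fold, or 1.56 ± 0.05 on the log2 scale. NFKBIE (chromosome 6, 44258166 to 44265788, minus strand), which encodes IκBε, rose from 13.9, 13.2 and 13.4 FPKM to 35.5, 39.4 and 35.0 FPKM, a log2 fold change of 1.44 ± 0.06. NFKBIZ (chromosome 3, 101827991 to 101861022, plus strand) encodes IκBζ, which acts in the nucleus and can help to switch on a subset of target genes. Its level went from 6.42, 7.34 and 6.83 FPKM to 17.7, 18.2 and 17.5 FPKM, a log2 fold change of 1.37 ± 0.06. NFKBIB (chromosome 19, 38899700 to 38908893, plus strand), which encodes IκBβ, rose from 18.2, 19.0 and 20.3 FPKM to 41.4, 41.8 and 35.1 FPKM, a log2 fold change of 1.04 ± 0.06. No library of one condition reached into the range of the other for any of these 5 genes.

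In KO cells the number of members called after the same treatment depended on untreated KO replicate 1, and was 8 without it, as given below. With all libraries, TNFAIP3 and NFKBIZ were called higher and no member was called lower. Of the 15475 genes tested, 13.6% were higher and 12.4% were lower. Both genes also passed the fold change and FPKM requirements, which 11.2% of all genes met. The median log2 fold change was 0.24 over the members and -0.03 over all genes tested. TNFAIP3 had 17.5, 22.6 and 22.3 FPKM in untreated KO cells and 74.1, 73.2 and 77.5 FPKM with H2O2. The groups did not overlap, and the change was 1.84 ± 0.13 on the log2 scale, or 3.59-fold, with an adjusted p of 8.06e-05. NFKBIZ went from 10.3, 10.9 and 11.4 FPKM to 22.9, 25.0 and 23.4 FPKM, a log2 fold change of 1.12 ± 0.09 with an adjusted p of 0.000139. At an unadjusted p under 0.05, 5 members passed by edgeR and also 5 by DESeq2.

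NFKBIA did not rise in KO cells. It had 166, 113 and 118 FPKM in the untreated KO libraries and 101, 92.9 and 100 FPKM with H2O2, so the treated libraries all lay under the untreated ones. The log2 fold change was -0.44 ± 0.16, with an adjusted p of 0.056. NFKB1 had 14.7, 19.4 and 18.9 FPKM untreated and 16.3, 16.9 and 16.9 FPKM treated, with a log2 fold change of -0.09 ± 0.12 and a 95% interval from -0.38 to 0.21. NFKB2, RELB and NFKBIE had changes of -0.06, 0.13 and 0.19, with intervals that all included 0. RELA and NFKBIB had 0.30 ± 0.11 and 0.32 ± 0.11, and did not pass, with adjusted p-values of 0.0749 and 0.0499.

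The biological coefficient of variation of that comparison was 0.161, and 0.0321 without the untreated KO library that stood apart. Without it, 8 of the 10 members were called, 6 higher and 2 lower, among 29.8% of all genes higher and 28.6% lower. NFKBIA was then lower by -0.25 ± 0.04 and NFKB1 by -0.21 ± 0.04, with adjusted p-values of 3.56e-11 and 9.86e-06. RELA, RELB, NFKBIE and NFKBIB were then higher by 0.19, 0.27, 0.35 and 0.43, and NFKB2 had -0.04. TNFAIP3 and NFKBIZ kept values near the earlier ones, 1.73 and 1.08. The fold change of REL turned from 0.30 to -0.17 and did not pass either way.

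The difference between the responses was tested directly, as an interaction of genotype and treatment over all 12 libraries. For 7 of the 10 members the log2 response was lower in KO than in WT cells, and for none was it called higher. At an unadjusted p under 0.05, 8 members passed by edgeR and 8 by DESeq2. Among all 16856 genes tested, 7.01% had a lower and 7.02% a higher response in KO cells. The median difference was -0.78 over the members and -0.03 over all genes. NFKBIA had the largest difference, -2.01 ± 0.17 with an adjusted p of 2.13e-05, and TNFAIP3 the next, -1.64 ± 0.14 with an adjusted p of 1.92e-05. NFKBIE differed by -1.25 ± 0.16 and NFKB1 by -1.05 ± 0.14. These 4 also met the fold change and FPKM requirements, as did 5.17% of all genes. RELB, NFKBIB and NFKB2 differed by -0.84 ± 0.15, -0.72 ± 0.14 and -0.52 ± 0.10, with adjusted p-values of 0.00163, 0.00274 and 0.00241. The calls of NFKB2 and NFKBIB rested on the full set of libraries. Leaving out untreated WT replicate 1 or H2O2-treated WT replicate 1 ended both calls, H2O2-treated WT replicate 2 that of NFKBIB, and H2O2-treated KO replicate 1 or 2 that of NFKB2, with adjusted p-values between 0.0101 and 0.0111.

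RELA, REL and NFKBIZ did not pass the test of the difference. The response of RELA differed by 0.00, with a 95% interval from -0.26 to 0.27. For REL the difference was 0.62, with a wide interval from -0.66 to 1.90. NFKBIZ differed by -0.24 ± 0.10 with an adjusted p of 0.0953. Without untreated KO replicate 1, 8 members had a lower response in KO cells and none a higher one, against 16.3% and 17.8% of all genes. NFKBIZ was the added gene, with -0.28 ± 0.08 and an adjusted p of 0.00201. The differences of NFKBIA and TNFAIP3 were then -1.81 ± 0.06 and -1.74 ± 0.06. That of REL was then 0.16, with a narrower interval from -0.22 to 0.54, and that of RELA -0.09, with an interval from -0.21 to 0.03. Neither passed, with adjusted p-values of 0.536 and 0.246.

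The genotypes differed before treatment. In untreated cells, NFKBIA, TNFAIP3 and NFKBIZ were higher in KO than in WT cells, and no member was called lower, among 15357 genes of which 4.42% were higher and 3.28% were lower. The median log2 fold change was 0.58 over the members and 0.01 over all genes. NFKBIA was 2.53-fold higher, from the WT values of 49.0 to 54.1 FPKM to the KO values of 113 to 166 FPKM, with a log2 fold change of 1.34 ± 0.16 and an adjusted p of 0.00197. TNFAIP3 was 2.16-fold higher, a log2 fold change of 1.11 ± 0.12 with an adjusted p of 0.00155. These 2 genes also met the fold change and FPKM requirements, which 3.50% of all genes met. NFKBIZ was higher by 0.66 ± 0.10, with an adjusted p of 0.00539. In all 3 genes every KO library lay above every WT library. At an unadjusted p under 0.05, 7 members passed by edgeR and 8 by DESeq2.

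RELB, NFKBIE and NFKBIB had log2 fold changes of 0.69 ± 0.13, 0.73 ± 0.14 and 0.51 ± 0.12 between untreated KO and WT cells and missed the threshold, with adjusted p-values of 0.0126, 0.0132 and 0.0242. DESeq2 called all 3 of them higher, and 6 members in all. For untreated cells the share of all genes called was computed only for the main fit and without untreated KO replicate 1. The other counts given here have no such share beside them. The count for untreated cells was the least stable of the 5 comparisons. It fell to 0 by edgeR when any 1 of the untreated WT libraries was left out, with 6 members still at an unadjusted p under 0.05, and the log2 fold changes of NFKBIA then lay between 1.29 and 1.37. Without untreated KO replicate 2 or 3, NFKBIZ lost its call, with adjusted p-values of 0.0204 and 0.0231. Without untreated KO replicate 1, 8 members were higher and RELA was lower, against 18.2% and 17.9% of all genes. NFKBIA was then higher by 1.15 ± 0.05, TNFAIP3 by 1.23 ± 0.06, RELB by 0.55 ± 0.07 and NFKBIE by 0.57 ± 0.07, while RELA was lower by -0.17 ± 0.05.

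With H2O2, NFKBIA and TNFAIP3 stood on the other side. In treated cells, 7 members were lower in KO than in WT cells and NFKBIZ was higher, among 15909 genes of which 27.9% were lower and 27.7% were higher. The median log2 fold change was -0.30 over the members and -0.00 over all genes. NFKB1 had 32.2, 32.4 and 27.5 FPKM in WT cells and 16.3, 16.9 and 16.9 FPKM in KO cells. This was the largest difference, 1.85-fold, with a log2 fold change of -0.89 ± 0.05 and an adjusted p of 1.12e-14. NFKBIA had 161, 149 and 155 FPKM against 101, 92.9 and 100 FPKM, a log2 fold change of -0.67 ± 0.04 with an adjusted p of 8.45e-16. TNFAIP3 and NFKBIE were lower by -0.53 ± 0.04 and -0.52 ± 0.05, with adjusted p-values of 6.62e-12 and 4.08e-10.

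Smaller differences were found for NFKB2, RELA and NFKBIB, at -0.32 ± 0.05, -0.28 ± 0.04 and -0.21 ± 0.05. NFKBIB was close to the limit of the data. Its lowest WT library had 35.1 FPKM and its highest KO library 34.5 FPKM, and after a correction for gene length its log2 fold change was -0.05 with an adjusted p of 0.393, the highest over its alternatives, of which the lowest was 1.94e-07. Its call also ended without treated WT replicate 1 or treated KO replicate 3, at 0.0120 and 0.0109. RELA missed the threshold with all 12 libraries in the fit, with an adjusted p of 0.0203, where its alternatives began at 1.16e-11. NFKBIZ went the other way, with 17.7, 18.2 and 17.5 FPKM in WT cells and 22.9, 25.0 and 23.4 FPKM in KO cells, a log2 fold change of 0.41 ± 0.04 and an adjusted p of 1.14e-09. RELB had -0.16 ± 0.05 and REL 0.05 ± 0.13, and neither passed, with adjusted p-values of 0.0137 and 0.777. RELB passed under 3 of its alternatives. Its adjusted p was 0.00236 with upper quartile scaling, 0.00509 among genes with at least 10 counts in every library and 0.00123 without treated WT replicate 3, with log2 fold changes of -0.20, -0.18 and -0.20. None of the 10 members was more than 2-fold apart between the genotypes under H2O2, so none met the fold change requirement, which together with the others was met by 7.46% of all genes. At an unadjusted p under 0.05, 9 of the 10 passed by edgeR and also by DESeq2.

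**Figure D1:**
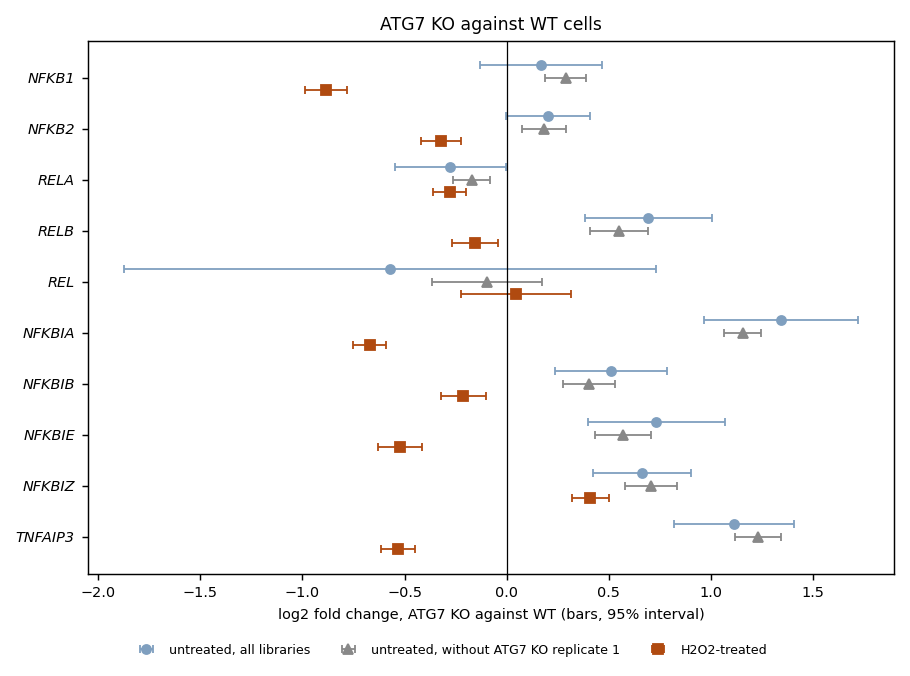
Log2 fold change of each gene in ATG7 KO against WT cells, untreated with all libraries, untreated without KO replicate 1, and with H2O2; bars are 95% intervals. NFKBIA, TNFAIP3, NFKBIE, NFKBIB, RELB, NFKB2 and NFKB1 lie right of 0 in untreated cells and left of 0 with H2O2, where NFKBIA and TNFAIP3 passed the test in both, and NFKBIZ lies right of 0 in both.

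The summed mRNA of the subunits and of the 3 classical inhibitors was set side by side as a description of stoichiometry at the mRNA level. The 5 subunits together had 79.1 ± 1.0 FPKM in untreated WT cells, 119 ± 7 with H2O2, 84.3 ± 2.7 in untreated KO cells and 90.8 ± 1.0 FPKM with H2O2. NFKBIA, NFKBIB and NFKBIE together had 84.9 ± 3.3 and 231 ± 6 FPKM in WT cells and 182 ± 37 and 158 ± 5 FPKM in KO cells. Inhibitor mRNA per subunit mRNA was therefore 1.07 ± 0.03 in untreated WT cells, with libraries between 1.03 and 1.09, and was higher in each library of the other 3 groups. It was 1.95 ± 0.09 in treated WT cells, 2.17 ± 0.52 in untreated KO cells and 1.74 ± 0.06 in treated KO cells. Without untreated KO replicate 1, at 2.77, the untreated KO libraries had 1.83 and 1.92. In WT cells the ratio went up with H2O2 and in KO cells each treated library lay under each untreated one. With 3 libraries against 3, an exact permutation test cannot go below 0.1, so no test was run on the ratio. NFKBIA made up 61.5 ± 1.2% of the classical inhibitor sum in untreated WT cells and 72.6 ± 1.1% in untreated KO cells, where replicates 2 and 3 had 71.6% and 72.3%. NFKB1 made up 25.8 ± 0.9% of the subunit sum in treated WT cells and 18.4 ± 0.3% in treated KO cells.

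The rest of the pathway was described by 5 gene lists written from general knowledge. Of the 22 listed NF-κB target genes, 19 could be tested for the response of WT cells, and 16 of them rose and 2 fell, with a median log2 fold change of 2.57, where 30.9% of all genes rose and 30.1% fell. In KO cells 10 of 19 rose and 3 fell, with a median of 0.98, against 13.6% and 12.4% of all genes. When untreated KO replicate 1 was left out, 12 rose and 4 fell, with a median of 1.25, against 29.8% and 28.6% of all genes. Between the responses, 16 of 20 were lower in KO cells and none higher, with a median difference of -1.54, where 7.01% of all genes were lower and 7.02% higher. The 4 that did not pass were ICAM1 with -0.63, TNFAIP2 with -1.03, CCL20 with -2.55 and BIRC3 with 0.33. Without untreated KO replicate 1, 17 of 20 had a lower response in KO cells, ICAM1 being the added gene, and 1, BIRC3, had a higher one, with a median of -1.38, against 16.3% and 17.8% of all genes. In untreated cells 9 of 18 target genes were higher in KO cells and 1, TRAF1, was lower, with a median of 1.41, against 4.42% and 3.28% of all genes. With untreated KO replicate 1 left out, 12 were higher and 2, TRAF1 and BIRC3, were lower, with a median of 1.27, against 18.2% and 17.9% of all genes. With H2O2, 7 of 20 were higher and 9 lower in KO cells, with a median of -0.13, where 27.7% of all genes were higher and 27.9% lower.

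The target genes with the most extreme differences between treated KO and WT cells illustrate both directions. IL1B, an inflammatory cytokine, had 6.04 ± 0.52 FPKM in untreated and 111 ± 4 in treated WT cells, against 51.1 ± 11.5 and 472 ± 22 FPKM in KO cells, so it was higher in KO cells by 2.08 ± 0.04 on the log2 scale under H2O2. CSF2, which encodes the growth factor GM-CSF, had 3.98 ± 0.56 and 64.9 ± 6.8 FPKM in WT cells and 27.0 ± 8.6 and 165 ± 9 FPKM in KO cells, a difference of 1.34 ± 0.06 under H2O2. These cytokines stood higher in KO cells although their fold response to H2O2 was smaller there, with interaction terms of -0.98 and -1.41, or -0.78 and -1.11 without untreated KO replicate 1. TNF, another cytokine, had 18, 12 and 32 reads in treated WT cells and none in treated KO cells. It was thus at least 21.4-fold lower there, taking 3 reads over the group as the floor. LTB, a related cytokine, had 13, 14 and 16 reads in treated WT cells and 3, 5 and 4 in treated KO cells. Setting TNF at its bound left the median of the target genes at -0.13.

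The signal that releases NF-κB passes through adaptors and kinases, whose median log2 fold changes with H2O2 in WT cells were 0.11 and 0.21. Of the 6 kinase genes of the IKK complex, NIK and the IKK-related kinases, 3 were higher and 1 lower in KO cells under H2O2, against the 27.7% and 27.9% of all genes. IKBKE and TBK1, the IKK-related kinases, were higher by 0.56 and 0.40, and MAP3K14, which encodes NIK of the non-canonical pathway, was lower by -0.52. In untreated cells 1 of the 6, IKBKE, was higher in KO cells, by 1.37, and none was lower, against 4.42% and 3.28% of all genes. Without untreated KO replicate 1, 2 were higher and 1 lower, against 18.2% and 17.9%. With H2O2, IKBKE changed by -0.89 in KO cells. In the response of WT cells 3 of the 6 rose, where 30.9% of all genes did. The response in KO cells was lower for 1 of the 6, and for 2 without untreated KO replicate 1, against 7.01% and 16.3% of all genes. Of 12 upstream adaptors, 3 were higher and 4 lower in KO cells under H2O2, shares close to those of all genes. TAB3, a partner of the kinase TAK1, was at 9.81 ± 0.13 FPKM in treated WT and 21.9 ± 0.6 FPKM in treated KO cells, a log2 fold change of 1.15. MYD88, the adaptor of Toll-like and interleukin-1 receptors, was higher by 0.54, whereas IRAK1 and TRADD were lower by -0.67 and -0.44. For the difference in response, 1 of the 12 adaptors was called higher and none lower, against 7.02% and 7.01% of all genes. After untreated KO replicate 1 was left out, 2 were higher and 1, IRAK1, was lower, by -0.20 with an adjusted p of 0.00352, against 17.8% and 16.3% of all genes.

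Other brakes on the pathway moved in both directions. Of 10 listed genes, partners of A20 and other negative regulators, 7 were higher and 2 lower in KO cells under H2O2, where 27.7% of all genes were higher and 27.9% lower. In untreated cells 3 were higher in KO cells and none lower, against 4.42% and 3.28% of all genes. Without untreated KO replicate 1, 3 were higher and 1 lower, against 18.2% and 17.9%. For the difference in response 2 were higher and 2 lower, against 7.02% and 7.01% of all genes. Without untreated KO replicate 1 the counts for the difference were 4 and 4, against 17.8% and 16.3%. TNIP3, an A20-binding protein, had 15, 10 and 10 reads in treated WT and 47, 83 and 75 reads in treated KO cells, a log2 fold change of 2.49. Before treatment it had 8, 11 and 11 reads in WT and 72, 100 and 108 reads in KO cells, a log2 fold change of 3.22. ITCH, a ubiquitin ligase that works with A20, had 14.5 ± 0.6 FPKM in treated WT and 24.8 ± 0.4 FPKM in treated KO cells. CYLD, another deubiquitinase, was at 9.38 ± 0.72 FPKM in treated WT and 5.77 ± 0.14 FPKM in treated KO cells, and TNIP2 at 34.4 ± 1.3 and 26.7 ± 0.5 FPKM. The 2 other IκB-like genes, BCL3 and NFKBID, fell with H2O2 in both genotypes, where NFKBIZ rose. BCL3 went from 16.2 ± 0.4 to 7.29 ± 0.58 FPKM in WT cells and from 16.1 ± 0.7 to 9.01 ± 0.45 FPKM in KO cells. Neither passed the test of the difference in response, with or without untreated KO replicate 1. Both were higher in treated KO than in treated WT cells, BCL3 by 0.30 and NFKBID by 0.81.

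Sequences before the transcription start were read from RefSeq on GRCh38.p14, in which 8 of the 10 members had an entry. RELB and NFKBIE were not among them. In the 250 bases before each annotated start, the κB consensus, the sequence that NF-κB dimers bind, was searched on both strands. Matches may overlap each other because the consensus is nearly palindromic. It was present in 1828 of all 35116 RefSeq windows, or 5.21%. Among the members, 5 of 8 held a match in the window nearest to the listed start and 7 of 8 in at least 1 of their windows, against 6.28% of all 27305 genes. The 2 windows of NFKBIA and NFKBIZ that end at or beside the listed start are given whole, because these genes had the most and the least changed response among the inhibitors. For NFKB1, REL and TNFAIP3, 30 bases around the match are given, since their windows reach into the listed gene. Capitals mark the match, and all sequences read 5′ to 3′ on the strand of the gene.
NFKBIA, chr14:35404750-35404999, minus strand: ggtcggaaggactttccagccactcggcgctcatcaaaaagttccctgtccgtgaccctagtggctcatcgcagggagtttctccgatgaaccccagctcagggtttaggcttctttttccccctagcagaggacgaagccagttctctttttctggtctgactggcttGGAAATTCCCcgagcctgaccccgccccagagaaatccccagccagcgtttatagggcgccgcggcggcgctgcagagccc
NFKBIZ, chr3:101827740-101827989, plus strand: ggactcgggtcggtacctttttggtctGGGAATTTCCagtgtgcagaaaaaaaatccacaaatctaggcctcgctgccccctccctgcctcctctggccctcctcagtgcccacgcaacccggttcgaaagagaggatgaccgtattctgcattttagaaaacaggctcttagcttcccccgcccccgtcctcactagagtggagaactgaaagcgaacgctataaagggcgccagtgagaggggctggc
NFKB1, chr4:102501300-102501329, plus strand: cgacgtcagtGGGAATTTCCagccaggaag
REL, chr2:60881517-60881546, plus strand: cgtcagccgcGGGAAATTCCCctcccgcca
TNFAIP3, chr6:137867188-137867217, plus strand: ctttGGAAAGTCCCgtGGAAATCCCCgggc

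The match of NFKBIA began 81 bases before its start and that of NFKB1 49 bases before. TNFAIP3 held a pair of matches, beginning 67 and 55 bases before its start, and REL held overlapping matches that began 47 and 46 bases before. These positions count from the RefSeq start, which lies 30, 53 and 71 bases inside the listed gene for NFKB1, REL and TNFAIP3. The matches of REL and TNFAIP3 thus lie within the listed gene, and that of NFKB1 before it. The match of NFKBIZ lay farther out, at 223 bases. NFKB2 and NFKBIB held matches only in the windows of other annotated starts, and RELA in neither of its 2 windows. REL, with matches near its RefSeq start, was not called in any of the 5 comparisons, but had only 24 to 203 reads. NFKBIB rose in WT cells, and its matches began 28 and 27 bases before another annotated start, 269 bases from the listed one. A link between matches and responses was not tested. The letters of a window are a description of these sequences only, and binding was not measured.

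Some members share bases with other genes, and because the strand setting of the counting is not given in the sources used here, reads of opposite strands may not be told apart. NFKBIB overlaps SIRT2 on the opposite strand over 163 bases, and SIRT2 itself had 1121 to 1371 reads in the libraries. The antisense gene AL357060.1 overlaps TNFAIP3 over 1046 bases but had only 14 to 183 reads, against 839 to 9659 for TNFAIP3. RELA shares 9 bases with a non-coding gene of at most 54 reads. REL shares 5702 bases with AC010733.2 and 140 with RNU4-51P, both on its own strand and both without reads. How reads in shared bases were counted is not given in the sources used here, so the level of REL may be understated. This was not tested. The remaining members share no bases with a gene that had reads.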

How the data were processed

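The authors deposited raw counts, whole numbers of reads per gene on GRCh38 without normalization, and FPKM values. The FPKM values deposited by the authors were checked against the counts for genes above a minimum count, and low counts were not checked. Within the range compared, an FPKM value equalled the count per length and total times 1 factor per library, between 0.949 and 1.02. Per the labels, total RNA was extracted with Trizol and the NEBNext Ultra kit was used. The submitters' processing notes name HISAT2 2.0.5 and featureCounts 1.5.0-p3. The strand setting is not given in the sources used here.

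Groups came from the labels. Library totals had a median of 17205174, and with 3 libraries per group the precision is set by the spread between libraries and, for REL, by its low counts. Counts were fitted in R 4.3.3 by the quasi-likelihood method of edgeR 4.0.16, robust, after filterByExpr at a minimum count of 10 and TMM scaling. A pair of groups was fitted on its 6 libraries with no covariate, and the interaction on all 12. SE came from the test statistic, intervals are 95%, and p-values were adjusted over all genes tested. The fits were tested on simulated data.

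The members and gene lists were chosen with earlier results of these data known. Named are all 10 members, ATG7, the 2 highest and 2 lowest genes of each list called between treated KO and WT cells (fewer where fewer were called), up to 3 genes most like each member and the nearest tested neighbours. One gene that this rule names is not reported here. TRAF1, the target genes that did not pass the interaction and the adaptor with a lower response were named after their values were seen. Alternatives were DESeq2 1.42.0, RLE and upper quartile scaling, no filter, at least 10 counts in every library, the replicate number as a block, a gene length offset (lowess span 0.3), limma 3.58.1 on log2 of FPKM plus 1 or plus 0.1, all 12 libraries in each fit, and each library left out. RefSeq promoter windows were cut to the 250 bases before the start.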

Additional observations from a re-analysis of the deposited data

Results flagged for a closer look

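The H2O2 response differed between ATG7 KO and WT cells by the interaction test for 7 of the 10 genes, each lower in KO cells, and these are listed for that reason. The log2 differences with their adjusted p-values by edgeR were -2.01 (2.13e-05) for NFKBIA, -1.64 (1.92e-05) for TNFAIP3, -1.25 (0.00026) for NFKBIE and -1.05 (0.000386) for NFKB1. They were -0.84 (0.00163) for RELB, -0.72 (0.00274) for NFKBIB and -0.52 (0.00241) for NFKB2. Untreated KO replicate 1, the library that stood apart, enters all 7. Without it the same 7 genes passed, with differences of -1.81, -1.74, -1.07, -1.15, -0.69, -0.60 and -0.48 in the same order. NFKBIA, NFKBIE, RELB, NFKBIB and NFKB2 had their highest untreated KO level in that library, and NFKB1 and TNFAIP3 their lowest. Groups of 3 libraries were not tested for single outlying libraries.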

How the results depend on the processing

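The number of members called with H2O2 between KO and WT cells was 8, and 6 to 9 under the other fits, apart from 0 under the fold change and FPKM requirements. In WT cells the 9 called became 5, and for the difference of the responses the 7 called became 4, under those requirements. The 3 called between untreated KO and WT cells became 6 with DESeq2, 5 with no filter on low counts, 5 with the gene length correction and 6 with all 12 libraries in 1 fit. Leaving out each library in turn gave 7 to 9 members between treated KO and WT cells, 0 to 9 between untreated KO and WT cells, 9 in WT cells, 2 to 8 in KO cells and 5 to 8 for the difference of the responses. The 0 came without any 1 untreated WT library, and the 9 and the 8 in KO cells without untreated KO replicate 1. Fewer libraries entered these fits, and beyond that the cause was not tested. The share of all genes called was computed only for the main fits and for those without untreated KO replicate 1. The counts under the other alternatives therefore do not show whether the members or all genes changed.

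In these alternatives the sign of a member's fold change reversed only for REL and RELA, in comparisons where they had not passed. REL between treated KO and WT cells was -0.18 after the gene length correction and between -0.084 and 0.13 with libraries left out, and its response in KO cells was between -0.17 and 0.73. The difference of the responses of RELA was -0.0039 with DESeq2, -0.0038 with RLE scaling, -0.035 with upper quartile scaling, -0.029 with at least 10 counts in every library, -0.053 with the gene length correction and between -0.089 and 0.067 with libraries left out.

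The deviations of same-numbered libraries from their group means correlated only between -0.070 and 0.098, so no shared effect of the replicate number was seen. Differently numbered libraries were not compared, and the labels do not say whether libraries were prepared in pairs. These values therefore cannot decide that. With the replicate number as a block the counts were 8 between treated KO and WT cells, 2 between untreated ones, 9 in WT cells, 2 in KO cells and 7 for the difference. The call lost was that of NFKBIZ in untreated cells.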

Other observations

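Genes with the profile most like that of each inhibitor were sought by Pearson r over log2(FPKM + 1) of the 12 libraries, among 12558 genes with a mean above 1 FPKM. The 12 points fall into 4 groups, so a high r mainly states that group means run in parallel, and it is given without a test. TNFAIP3 ran with SPRY4 at 0.995 and RHOB at 0.993. NFKBIZ ran with CD44 at 0.992, IL4R at 0.990 and PHLDA1 at 0.989. For NFKBIA the closest was PTX3, an acute-phase protein, at 0.976, and for NFKBIE it was TNFRSF12A, a receptor of the TNF family, at 0.985. RELA ran with ZBTB43 at 0.986 and RELB with ADO at 0.983, while NFKB1 had no gene above 0.973 and NFKB2 none above 0.955.

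The genes around NFKBIA also differed between the genotypes. Of 26 genes tested within 2 Mb of it, 14 were higher and 2 lower in KO than in WT cells under H2O2, with a median log2 fold change of 0.55, where 27.7% of all genes were higher and 27.9% lower and NFKBIA itself was lower by -0.67. In untreated cells 8 of 24 neighbours were higher, with a median of 0.70, and NFKBIA was higher by 1.34, where 4.42% of all genes were higher. Without untreated KO replicate 1, 14 of 24 neighbours were higher and 2 lower, with a median of 0.59, against 18.2% and 17.9% of all genes. The nearest tested gene at lower coordinates, AL133163.1 at 12442 bases, was lower in treated KO cells by -5.00. NFKBIA lies on the minus strand, so this gene is past its end and not before its start. On the other side the nearest, DNAJC8P1 at 25511 bases, had -0.02 with an adjusted p of 0.969 by edgeR. The neighbours of the other members within 2 Mb had medians between -0.17 and 0.45 under H2O2.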
